A study of Mus musculus with 19 samples.

Results

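The 38 mitosis genes described here code for the kinases, cyclins, checkpoint proteins, kinetochore and spindle proteins, ubiquitin-pathway proteins and cytokinesis factors that carry a cell through division, with the proliferation antigen Mki67 and the topoisomerase Top2a. They were taken as a fixed list of symbols, chosen with earlier results of these data known, and the rule itself uses no measured value. All 38 were among the 13202 genes of the deposited bulk table, and 31 of them reached the level needed for a test. The study used Melan-a, an immortalised mouse melanocyte line, and 4 clones of it in which Bap1, the gene of a nuclear deubiquitinase, had been knocked out with CRISPR. Bulk RNA was measured in 2 biological replicate cultures of the parental Bap1 wild-type line and in 2 of each knockout clone, 10 libraries in all, without drug treatment. Melan-a cells, wild-type or knockout, had also been injected into syngeneic mice under the skin or into the eye, and the resulting tumours gave 4 single-cell matrices that share 1 sample record. Genotype and site of those matrices are known only from their file labels (KO ocular, KO skin, WT ocular and WT skin). Neither the clone injected nor the number of mice pooled is stated. The sample title names multiplexed tumour tissues, and the labels do not say which matrices came from a common run. Each matrix stands for its genotype and site without a replicate. No clone that went through editing and kept Bap1 was analysed here, so loss of Bap1 and the derivation of a clone cannot be told apart.

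Mitosis genes are switched on together late in the cell cycle. In resting and early-cycle cells the DREAM complex holds their promoters silent, in part through a sequence element called the CHR (cell cycle genes homology region), and in dividing cells the MuvB core of the same complex passes to B-Myb and FoxM1, which activate them. CCAAT boxes bound by NF-Y are a common companion of the CHR. The RNA of these genes is therefore abundant mainly in cells that are about to divide or dividing, and many of the proteins are destroyed again at the end of mitosis by the anaphase-promoting complex. In bulk RNA, fewer dividing cells and less RNA per dividing cell cannot be told apart.

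RefSeq promoter windows (build GRCm38.p6, 300 bases each) were matched by symbol to 34 of the 38 genes, in 37 windows because some genes have more than 1 start site. The canonical CHR letters, TTTGAA on either strand, occurred in 25 of these 37 windows (67.6%), against 17.9% of all 32851 windows in the table. CCAAT on either strand occurred in 29 member windows (78.4%), against 37.4% of all windows, and both stood in 21 (56.8%), against 6.95%. A match to either motif can share only an end letter with a match to the other. CHR matches of the members also lay close to the start site: 25 of 34 (73.5%) began within 50 bases of it, compared with 25.3% of the 6737 matches in all windows. A match is a string of letters and not a measured binding site, and no binding was assayed in these files.

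Below are the sequences of 6 genes with a CHR, 1 from each of 6 functional roles, shown because each differed among the clones with the smallest F test p-value of its role among genes with a CHR wholly inside the stretch shown. A second CHR match of Ckap2l lies beyond the end of the stretch and is not printed. Each runs 5′ to 3′ on the gene's own strand from 250 bases before the start site to 30 after it, and capitals mark CHR and CCAAT letters, TTTGAA and CCAAT or their reverse complements TTCAAA and ATTGG. The windows lie at chr7:135716350-135716629, minus strand (Mki67), chr4:118437314-118437593, minus strand (Cdc20), chr9:70421525-70421804, minus strand (Ccnb2), chr2:129297183-129297462, minus strand (Ckap2l), chr19:34922108-34922387, plus strand (Kif20b) and chr1:189688057-189688336, minus strand (Cenpf).
Mki67: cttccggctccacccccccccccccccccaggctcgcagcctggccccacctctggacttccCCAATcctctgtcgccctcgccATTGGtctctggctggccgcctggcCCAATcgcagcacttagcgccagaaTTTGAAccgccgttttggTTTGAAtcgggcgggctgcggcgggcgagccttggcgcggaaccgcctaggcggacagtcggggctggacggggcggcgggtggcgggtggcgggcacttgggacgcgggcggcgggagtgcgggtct
Cdc20: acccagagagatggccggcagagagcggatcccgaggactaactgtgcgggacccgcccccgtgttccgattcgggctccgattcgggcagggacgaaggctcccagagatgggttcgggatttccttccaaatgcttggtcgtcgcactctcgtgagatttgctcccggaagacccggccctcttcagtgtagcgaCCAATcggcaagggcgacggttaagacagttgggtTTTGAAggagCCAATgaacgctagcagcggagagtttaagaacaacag
Ccnb2: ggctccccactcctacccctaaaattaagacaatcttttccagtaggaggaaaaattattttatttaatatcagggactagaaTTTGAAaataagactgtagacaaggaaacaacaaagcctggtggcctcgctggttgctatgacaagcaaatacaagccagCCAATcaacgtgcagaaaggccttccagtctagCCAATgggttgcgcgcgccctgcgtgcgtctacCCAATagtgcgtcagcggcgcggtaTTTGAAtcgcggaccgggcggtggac
Ckap2l: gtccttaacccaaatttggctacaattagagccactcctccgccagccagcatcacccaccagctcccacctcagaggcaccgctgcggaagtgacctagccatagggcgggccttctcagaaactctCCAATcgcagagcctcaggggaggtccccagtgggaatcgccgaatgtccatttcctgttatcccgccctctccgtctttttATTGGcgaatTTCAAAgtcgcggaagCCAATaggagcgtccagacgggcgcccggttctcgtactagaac
Kif20b: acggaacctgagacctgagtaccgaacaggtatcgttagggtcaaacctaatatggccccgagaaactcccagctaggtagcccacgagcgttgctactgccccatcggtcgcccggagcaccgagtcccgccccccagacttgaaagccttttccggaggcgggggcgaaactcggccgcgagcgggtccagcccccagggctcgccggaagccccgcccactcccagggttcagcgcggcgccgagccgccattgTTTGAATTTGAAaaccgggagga
Cenpf: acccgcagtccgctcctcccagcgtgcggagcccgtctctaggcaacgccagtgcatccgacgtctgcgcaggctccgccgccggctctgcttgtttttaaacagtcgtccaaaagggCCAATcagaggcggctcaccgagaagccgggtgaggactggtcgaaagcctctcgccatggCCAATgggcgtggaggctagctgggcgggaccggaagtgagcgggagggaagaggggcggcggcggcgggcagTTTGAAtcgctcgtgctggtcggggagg

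**Figure D1:**
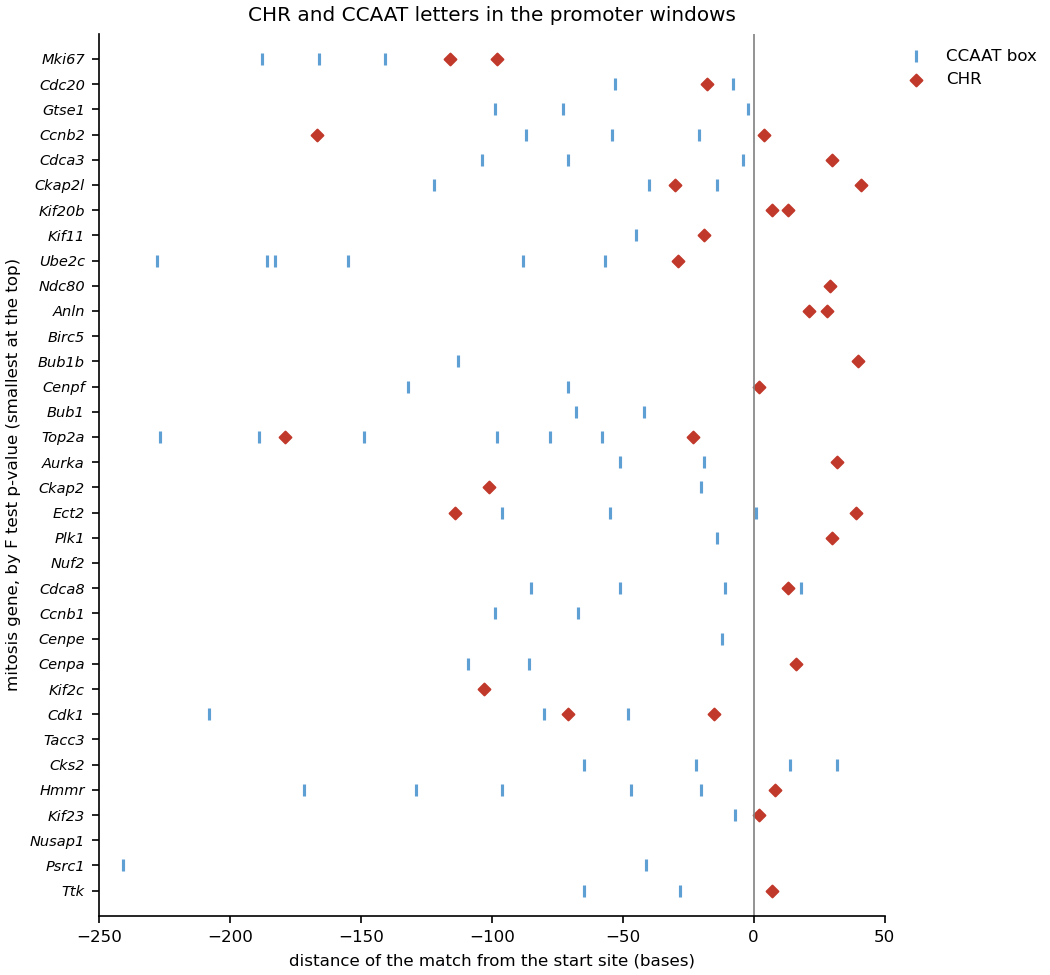
Position of each CHR match (red diamonds) and CCAAT match (blue ticks) in bases from the start site (x axis) for the 34 matched mitosis genes (y axis, the first window of each gene, ordered by F test p-value). CHR matches gather near the start site, with 25 of 34 over all 37 windows within 50 bases of it.

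Kif20b carries 2 CHR matches back to back, and Mki67 holds a pair upstream of its start site behind 3 CCAAT matches. Birc5, Nuf2, Tacc3 and Nusap1 held neither set of letters in their windows, which says only that these letters are not there. In the bulk data Birc5 was among the genes that rose most in clone 2 and Tacc3 rose in clones 2 and 4, as given below.

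The bulk libraries held 30770592 to 46837289 reads over the genes listed. The deposited values are variance-stabilised log2 values. They could be turned back into whole reads, to within 0.01 reads, for 100% of the values, so levels below are given as normalised reads (reads divided by the library's size factor). Bap1 was counted at 4449.7 and 4392 normalised reads (parental), 753 and 655 (clone 1), 1067 and 1124 (clone 2), 1193 and 1098 (clone 3) and 491 and 359 (clone 4), so the clone means held 9.62 to 25.9% of the parental level. The parental cultures differed little from each other (mean chi-square per gene 2.41), whereas the cultures of a clone differed more (10.3 to 68.4). p-values measure the spread between cultures of a line, pooled over the 5 lines.

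Mitosis genes were scarce in these cultures and differed by clone. Summed over the 38 genes, they took 103 and 103 CPM (counts per library scaled to 1000000) in the parental line, 154 and 149 (clone 1), 269 and 192 (clone 2), 90.5 and 88.2 (clone 3), and 97.8 and 152 (clone 4). Both cultures of clone 2 stood above all others, both of clone 3 below all others, and those of clone 4 lay on either side of the parental pair.

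Against the parental line (limma, Benjamini-Hochberg adjusted p under 0.05 over all 10803 genes tested), 25 of the 31 tested members rose in clone 2 and 0 fell, where 12% of all genes tested rose and 14.1% fell. Clone 1 had 0 members called in either direction (1.15% of all genes rose and 2.35% fell), although all 31 had a positive difference and 7 had an unadjusted p under 0.05. edgeR's quasi-likelihood test also called 0 members in clone 1. In clone 3, 4 members fell, Bub1b, Kif20b, Ndc80 and Ckap2, and 0 rose, against backgrounds of 20% and 19.9%. In clone 4, 3 members rose, Cenpe, Gtse1 and Tacc3, and 0 fell, against backgrounds of 19.3% and 17.2%. The counts in clones 3 and 4 are below the share of all genes called there.

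The median stabilised log2 difference of the 31 members was 0.26 in clone 1, 0.71 in clone 2, -0.17 in clone 3 and 0.10 in clone 4, while the medians of all genes tested lay between -0.02 and 0.04. The stabilised scale compresses low counts, and edgeR's log2 fold changes on the recovered reads had medians of 0.64, 1.34, -0.47 and 0.24 in clones 1 to 4. With quantile normalisation the median in clone 4 was 0.31, with 31 of 31 members positive, close to the 0.30 of clone 1. Under the same normalisation the median in clone 3 turned to 0.02 and 1 member remained called lower there, so no direction is given for clone 3 as a whole. Leaving out either parental culture cut the members called higher in clone 2 to 11 or 12, and leaving out the first culture of clone 2 cut them to 13, while all other omissions left 23 to 26.

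Of the entry kinases and cyclins, which start mitosis, 6 of 7 tested rose in clone 2. Ccnb2, a B-type cyclin that activates Cdk1, was counted at 34.3 and 39.6 normalised reads (parental), 66.3 and 79.96 (clone 1), 127 and 128 (clone 2), 29.3 and 32.4 (clone 3) and 25.2 and 53.0 (clone 4). Both clone 2 cultures exceeded every other culture, with a clone mean of 345% of the parental mean (stabilised log2 difference 0.70 ± 0.12 SE, limma adjusted p = 0.00226), and both clone 3 cultures lay below the parental pair. Aurka, the centrosomal kinase that matures spindle poles, was counted at 97.2 and 91.5 normalised reads (parental), 96.5 and 141 (clone 1), 273 and 191 (clone 2), 41.8 and 70.5 (clone 3) and 56.2 and 136 (clone 4). Again both clone 2 cultures were the highest, at 246% of the parental mean (stabilised log2 difference 0.67 ± 0.19 SE, limma adjusted p = 0.0233), and both clone 3 cultures lay below the parental pair without passing the test (adjusted p = 0.213). Cdk1, the kinase that drives entry into mitosis, rose to 187% of the parental mean in clone 2, Ccnb1 to 200.4%, Ccna2 to 236% and the polo-like kinase Plk1 to 298%. The median of all tested genes on chromosome 10, where Cdk1 lies, was also raised in clone 2, by 0.28 on the stabilised log2 scale, and its part in the Cdk1 difference of 0.67 was not tested. Cks2, a small partner of the cyclin-dependent kinases, passed no test in a clone and was the member with the least evidence of a difference among clones (F test adjusted p = 0.41).

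The spindle checkpoint genes delay chromosome separation until every chromosome is attached. Bub1b, which codes for the checkpoint protein BubR1, was counted at 352 and 309.8 normalised reads (parental), 334 and 351 (clone 1), 594 and 401 (clone 2), 224 and 196 (clone 3) and 299 and 381 (clone 4). Clone 2 cultures were the highest and clone 3 cultures the lowest; the fall in clone 3 to 63.5% of the parental mean passed the test (stabilised log2 difference -0.41 ± 0.15 SE, limma adjusted p = 0.0428), while the value in clone 2, 151%, did not (adjusted p = 0.064). The clone 3 call of Bub1b was lost under quantile normalisation (adjusted p = 0.229). Bub1, the kinase that recruits the checkpoint to kinetochores, was counted at 40.0 and 29.0 normalised reads (parental), 74.4 and 64.2 (clone 1), 178 and 90.1 (clone 2), 17.8 and 17.3 (clone 3) and 26.4 and 75.7 (clone 4). In clone 2 it rose to 388% of the parental mean (stabilised log2 difference 0.74 ± 0.18 SE, limma adjusted p = 0.0139). Both clone 3 cultures were the lowest of the 10, at 50.8% of the parental mean (adjusted p = 0.324).

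Centromere and kinetochore genes build the site where microtubules grip the chromosome, and 4 of 6 rose in clone 2. Ndc80, a subunit of the complex that binds microtubules, was counted at 61.0 and 66.0 normalised reads (parental), 100.1 and 74.3 (clone 1), 118 and 61.6 (clone 2), 7.32 and 19.6 (clone 3) and 35.6 and 60.53 (clone 4). Every clone 3 value was below every other culture, at 21.2% of the parental mean (stabilised log2 difference -0.62 ± 0.15 SE, limma adjusted p = 0.0102), while the first clone 2 culture was above the parental pair and the second between them. Cenpf, a large outer kinetochore protein, was counted at 44.8 and 60.7 normalised reads (parental), 113 and 46.2 (clone 1), 257 and 109 (clone 2), 26.1 and 8.09 (clone 3) and 45.9 and 56.7 (clone 4). The first clone 2 culture was the highest of all, clone 2 as a whole reached 346% of the parental mean (stabilised log2 difference 0.76 ± 0.22 SE, limma adjusted p = 0.0297), and the call was lost in 3 of 10 omissions of a library, at an adjusted p of 0.186 without the first culture of clone 2. Cenpe, the kinesin that moves chromosomes to the spindle equator, rose in clone 2 to 231% and in clone 4 to 197% of the parental mean (stabilised log2 difference 0.69 ± 0.17 SE, limma adjusted p = 0.00927). Cenpa, the centromeric histone, reached 234% in clone 2 and Nuf2, the partner of Ndc80, 445%, both past the threshold. Kif2c, a kinesin that corrects faulty attachments, was at 259% in clone 2 and missed it (adjusted p = 0.0535).

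The chromosomal passenger genes guide attachment and the final cut between daughter cells. Birc5, which codes for survivin, was counted at 30.5 and 29.9 normalised reads (parental), 67.0 and 43.9 (clone 1), 187 and 111 (clone 2), 27.2 and 38.1 (clone 3) and 47.0 and 78.2 (clone 4). Clone 2 cultures were the highest of the 10 and their mean was 492% of the parental mean (stabilised log2 difference 0.87 ± 0.15 SE, limma adjusted p = 0.0023), the largest ratio in clone 2 among tested members. Cdca8, which codes for borealin, was counted at 232 and 184 normalised reads (parental), 251 and 255 (clone 1), 370.1 and 262 (clone 2), 131 and 173 (clone 3) and 200.8 and 269 (clone 4). The first clone 2 culture was the highest, but the second was below the second of clone 4, and the difference in clone 2 missed the threshold (stabilised log2 difference 0.37 ± 0.14 SE, limma adjusted p = 0.0834). Aurkb, the kinase of the same complex, was below the level needed for a test and was counted at 10.5 and 9.68 normalised reads (parental), 28.0 and 43.9 (clone 1), 49.6 and 74.9 (clone 2), 25.1 and 28.9 (clone 3) and 17.2 and 49.2 (clone 4).

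Spindle and microtubule genes had 5 of 6 tested members higher in clone 2. Gtse1, a microtubule-associated protein, was counted at 44.8 and 59.9 normalised reads (parental), 74.4 and 99.1 (clone 1), 176 and 146 (clone 2), 36.6 and 40.4 (clone 3) and 86.1 and 111 (clone 4). Clone 2 was highest, and both clone 4 cultures exceeded both parental cultures, with clone means of 308% (stabilised log2 difference 0.71 ± 0.12 SE, limma adjusted p = 0.00171) and 188% (stabilised log2 difference 0.36 ± 0.12 SE, limma adjusted p = 0.034) of the parental mean. The clone 4 call of Gtse1 was lost in 5 of 10 omissions of a library (adjusted p = 0.224 without the first parental culture). Ckap2l, a spindle protein, was counted at 50.5 and 63.4 normalised reads (parental), 106 and 92.3 (clone 1), 246 and 131 (clone 2), 19.9 and 18.5 (clone 3) and 35.6 and 103 (clone 4). Clone 2 held the highest pair and clone 3 the lowest, at 331% (stabilised log2 difference 0.77 ± 0.19 SE, limma adjusted p = 0.0156) and 33.7% of the parental mean (adjusted p in clone 3 = 0.0953). Tacc3, which stabilises kinetochore fibres, rose to 209% in clone 2 and 192% in clone 4 (stabilised log2 difference 0.57 ± 0.14 SE, limma adjusted p = 0.00908), and the median of all tested genes on its chromosome, 5, was 0.27 in clone 4 and 0.35 in clone 3. Tpx2, the activator of Aurora A, rose to 178% and the spindle motor Kif11 to 361% in clone 2. Ckap2 fell in clone 3 to 41.7% of the parental mean (stabilised log2 difference -0.37 ± 0.13 SE, limma adjusted p = 0.0387), a call lost under quantile normalisation (adjusted p = 0.199).

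All 3 genes listed under the ubiquitin pathway rose in clone 2. Cdc20, the activator of the anaphase-promoting complex, was counted at 73.4 and 82.7 normalised reads (parental), 86.9 and 157 (clone 1), 219 and 221 (clone 2), 53.3 and 50.8 (clone 3) and 83.8 and 90.8 (clone 4). The clone 2 cultures agreed closely and were the highest, at 282% of the parental mean (stabilised log2 difference 0.75 ± 0.13 SE, limma adjusted p = 0.00242), and the clone 3 pair was the lowest. Cdca3, a trigger of mitotic entry that acts through ubiquitination, was counted at 152 and 137 normalised reads (parental), 207 and 188 (clone 1), 421 and 407 (clone 2), 202 and 183 (clone 3) and 177 and 267 (clone 4). All 8 knockout cultures lay above both parental cultures, and clone 2 was highest at 287% (stabilised log2 difference 0.94 ± 0.12 SE, limma adjusted p = 0.000473). Ube2c, the ubiquitin-conjugating enzyme that works with the anaphase-promoting complex, rose in clone 2 to 436% of the parental mean (stabilised log2 difference 0.92 ± 0.18 SE, limma adjusted p = 0.00417).

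Cytokinesis genes, which build and close the cleavage furrow, had 3 of 3 tested members higher in clone 2. Kif20b, a kinesin of the midbody, was counted at 56.2 and 52.8 normalised reads (parental), 79.5 and 73.2 (clone 1), 127 and 90.1 (clone 2), 26.1 and 23.1 (clone 3) and 39.0 and 65.6 (clone 4). Clone 2 was highest and clone 3 lowest; both differences passed the test, at 199.6% (stabilised log2 difference 0.40 ± 0.12 SE, limma adjusted p = 0.0342) and 45.2% (stabilised log2 difference -0.34 ± 0.12 SE, limma adjusted p = 0.0476) of the parental mean, and quantile normalisation ended the call in clone 3 (adjusted p = 0.239). Anln, the actin-binding protein anillin, was counted at 79.1 and 60.7 normalised reads (parental), 187 and 155 (clone 1), 295 and 181 (clone 2), 90.97 and 83.2 (clone 3) and 65.4 and 105 (clone 4). Clones 1 and 2 held the 4 highest values, with clone 2 at 340.4% (stabilised log2 difference 0.87 ± 0.15 SE, limma adjusted p = 0.00268) and clone 1 at 245% of the parental mean, the latter short of the threshold (adjusted p = 0.0604). Ect2, which activates RhoA at the cleavage furrow, reached 237% in clone 2.

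Mki67, the proliferation antigen that coats mitotic chromosomes, was counted at 67.7 and 62.5 normalised reads (parental), 134 and 113 (clone 1), 319 and 219 (clone 2), 26.1 and 30.05 (clone 3) and 41.3 and 84.5 (clone 4). Its clone 2 cultures were the highest and its clone 3 cultures the lowest of the 10. Clone 2 reached 413% of the parental mean (stabilised log2 difference 1.02 ± 0.15 SE, limma adjusted p = 0.000836), and this call held when each library was left out in turn (largest adjusted p = 0.0114). The clone 3 mean of 43.2% missed the threshold (adjusted p = 0.0635), though edgeR on the recovered reads called it (adjusted p = 0.0266). Top2a, the topoisomerase that untangles sister chromosomes, was counted at 131 and 122 normalised reads (parental), 212 and 155 (clone 1), 546 and 305 (clone 2), 55.4 and 55.5 (clone 3) and 81.5 and 305 (clone 4). Clone 2 rose to 337% of the parental mean (stabilised log2 difference 1.03 ± 0.28 SE, limma adjusted p = 0.0217). The cultures of clone 4 disagreed, with the first below the parental pair and the second level with the lower clone 2 culture. The clone 2 call of Top2a was lost in 3 of 10 omissions (adjusted p = 0.132 without the first culture of clone 2).

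**Figure D2:**
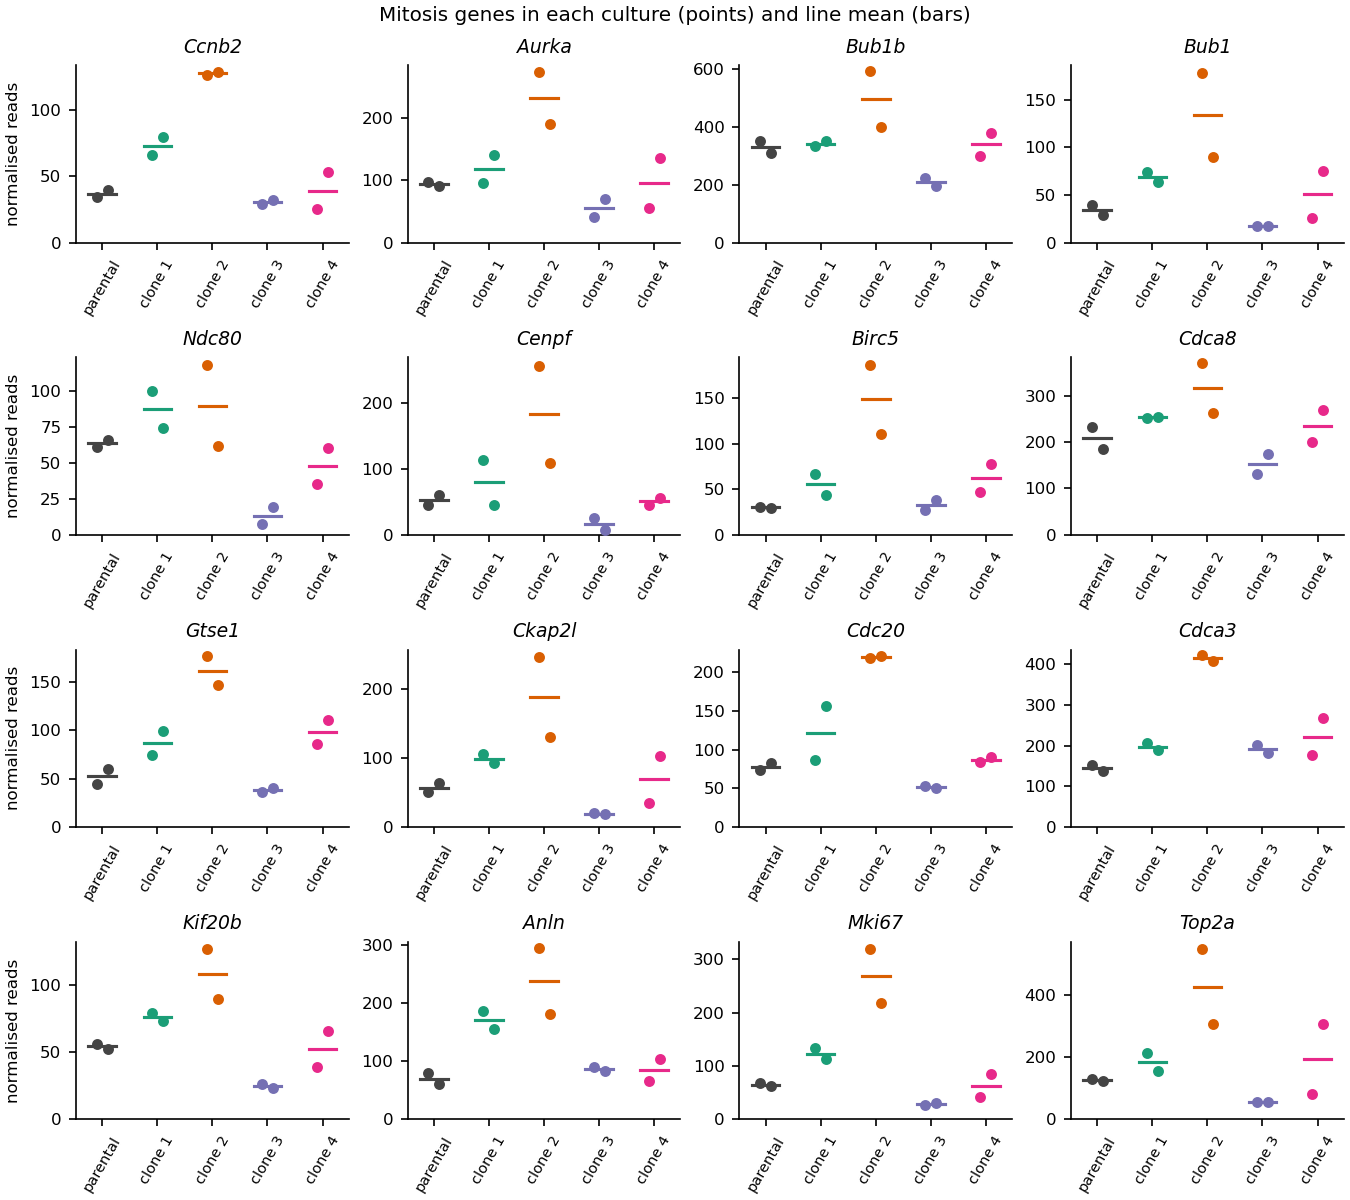
Normalised reads (y axis, from 0) of 16 mitosis genes, 2 from each functional role by smallest F test p-value, in the 2 cultures (points) of the parental line and each clone (x axis); bars are line means. Clone 2 has the highest mean in every panel, and clone 4 is split between its cultures in many, as in Top2a with 81.5 and 305 reads.

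The 7 members below the level needed for a test were Aurkb, Nusap1, Cdc25c, Kif23, Hmmr, Ttk and Psrc1, with 2.31 reads (Hmmr, the second culture of clone 3) to 127 reads (Nusap1, the first culture of clone 2) per culture. Hmmr, a spindle-associated hyaluronan receptor, was counted at 8.58 and 11.4 normalised reads (parental), 29.5 and 22.5 (clone 1), 61.1 and 39.2 (clone 2), 5.23 and 2.31 (clone 3) and 9.18 and 20.2 (clone 4). Clone 2 held its highest pair and clone 3 its lowest. Kif23, the motor of the central spindle, was counted at 22.9 and 31.7 normalised reads (parental), 53.0 and 57.4 (clone 1), 104 and 93.7 (clone 2), 20.9 and 31.2 (clone 3) and 17.2 and 60.53 (clone 4), with clone 2 highest. For the microtubule-binding protein Psrc1 the clone 2 mean was instead 81.4% of the parental mean, and for Ttk, the checkpoint kinase Mps1, every count was at or below 20.52 reads.

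Clone 2 was also set against each other clone, a comparison chosen with earlier results of these data known, in which all 3 contrasts share the clone 2 cultures. Against clone 3, 28 members were higher and 0 lower (8.34% of all genes were higher and 7.49% lower), against clone 4, 17 and 0 (9.9% and 11.6%), and against clone 1, 5 and 0 (4.54% and 6.97%). The 5 higher than in clone 1 were Mki67, Birc5, Cdc20, Cdca3 and Gtse1. An F test over the clones called 28 of 31 members, against 44.5% of all genes; the 3 not called were Cdk1, Cks2 and Tacc3. Without the first culture of clone 2 the F test called 18, and without the first or second culture of clone 3 it called 19 or 14. With the clone as the unit, 4 clone means against 1 parental value, 0 of 31 members and 0% of all genes were called, with Mki67 at a mean difference of 0.25 ± 0.49 SE (limma adjusted p = 0.896). At an unadjusted p under 0.05 that fit held 0 members, the smallest being Tacc3 (limma unadjusted p = 0.0792).

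The cultures of a clone did not always agree. Median differences of the 31 members from the parental mean were 0.25 and 0.28 (clone 1), 0.80 and 0.56 (clone 2), -0.21 and -0.13 (clone 3) and -0.07 and 0.31 (clone 4). In clone 4, 28 of 31 members were higher in the second culture, by up to 1.02 (Top2a), and Cenpe went the other way by 0.32. In clone 2, 3 of 31 were higher in the second culture. The S-phase genes showed the same split in clone 4, with a median over the list of 0.04 in the first culture and 0.47 in the second, while the median of all genes tested was 0.05 and 0.02. Of the 31 tested members, 31 and 30 lay above both parental cultures in the clone 2 cultures, and 22 and 20 lay below both in the clone 3 cultures.

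**Figure D3:**
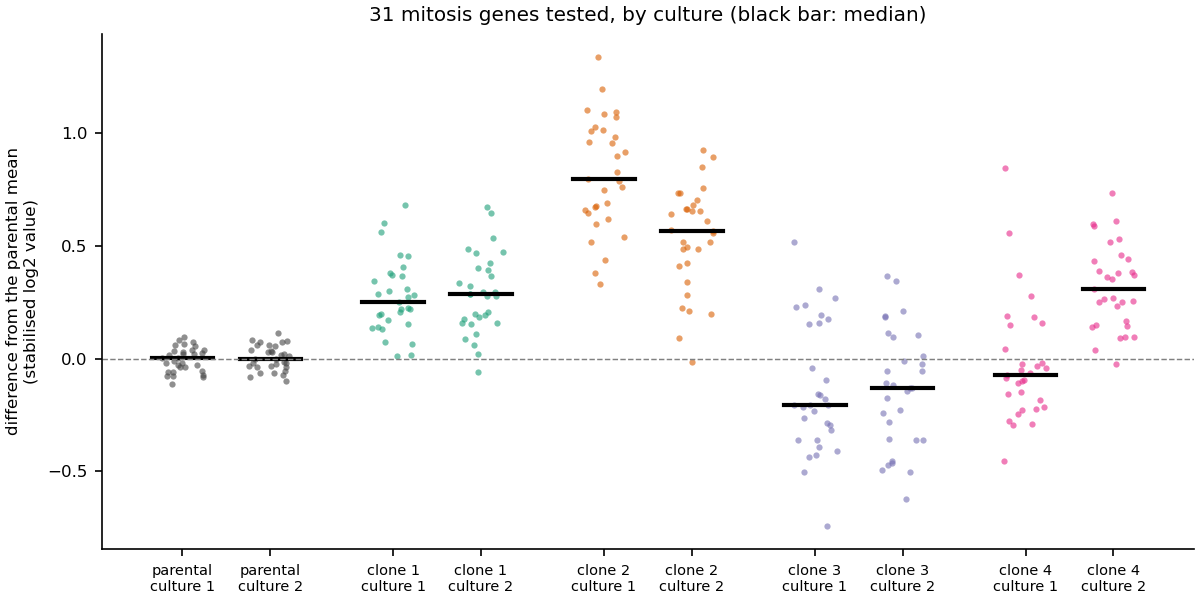
Difference of each of the 31 tested mitosis genes (points) from its parental mean on the stabilised log2 scale (y axis) in each of the 10 cultures (x axis), with black bars at the median. Clone 2 medians are 0.80 and 0.56, clone 3 medians are below 0, and the clone 4 cultures lie at -0.07 and 0.31.

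The members moved together across cultures. Over the 10 cultures, the 465 pairs of the 31 tested members had a median correlation of 0.82, with 463 pairs positive; all pairs share the same libraries and lines, so this is a description. By single culture on the stabilised scale, the highest value lay in clone 2 for 30 of 31 members and in clone 1 for 1. The lowest single culture lay in clone 3 for 18 members, in the parental line for 7 and in clone 4 for 6. By line mean, clone 2 was above the parental line and above each other clone for 31 of 31 members.

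The other cell-cycle lists below were also chosen with earlier results of these data known. Their counts are to be read against the shares of all genes that rose and fell: 12% and 14.1% (clone 2), 19.9% and 20% (clone 3), and 19.3% and 17.2% (clone 4). Of 34 tested among 53 further mitosis genes, the numbers that rose and fell were 0 and 0 (clone 1), 14 and 0 (clone 2), 4 and 4 (clone 3), and 6 and 1 (clone 4), with medians of 0.22, 0.36, -0.09 and 0.12. Prc1, the bundler of the central spindle, was counted at 119 and 121 normalised reads (parental), 187 and 173 (clone 1), 486 and 278 (clone 2), 32.4 and 47.4 (clone 3) and 35.6 and 117 (clone 4). It rose in clone 2 to 319% and fell in clone 3 to 33.3% of the parental mean (stabilised log2 difference -0.62 ± 0.21 SE, limma adjusted p = 0.0398). Racgap1, a partner of Ect2 and Kif23 in cytokinesis, fell in clone 3 to 26.0% of the parental mean (stabilised log2 difference -1.41 ± 0.20 SE, limma adjusted p = 0.000471), where its cultures held 248 and 199.9 reads against 863 and 862 in the parental line. The median of all tested genes on chromosome 15, which holds Racgap1, was -0.27 in clone 3. Cks1b, like Cks2 a partner of cyclin-dependent kinases, rose in clones 2, 3 and 4, to 176%, 209% and 208%, and Pkmyt1, a kinase that restrains Cdk1, rose in clone 4 to 259%.

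Among 14 tested regulators of these genes (DREAM, MuvB and E2F components), the numbers that rose and fell were 0 and 0 (clone 1), 4 and 1 (clone 2), 5 and 3 (clone 3), and 2 and 2 (clone 4) (medians 0.10, 0.14, 0.24 and 0.11 in clones 1 to 4). Against 19.9% of all genes higher and 20% lower in clone 3, and 19.3% and 17.2% in clone 4, the regulators lower in clone 3 and those called in clone 4 are near or below the background. E2f1, an activator of S-phase genes, was counted at 309.7 and 297 normalised reads (parental), 423 and 435 (clone 1), 748 and 636 (clone 2), 595 and 741 (clone 3) and 629 and 1118 (clone 4), and it rose in clones 2, 3 and 4, while in clone 3 Mki67 and Top2a were at 43.2% and 43.8% of the parental mean. Its dimer partner Tfdp1 rose in the same 3 clones, to 148%, 174% and 135%, and the partner Tfdp2 fell in them to 43.6%, 26.7% and 39.6%. Rb1, the retinoblastoma protein that restrains E2F, fell in clones 3 and 4 to 62.6% and 59.9%. The 17 tested genes of the anaphase-promoting complex, the ligase that ends mitosis, gave 4, 4 and 5 higher in clones 2, 3 and 4, 0 in clone 1, and 0 lower in any clone (medians 0.08, 0.10, 0.08 and 0.23 in clones 1 to 4), where the count in clone 3 is near the background of 19.9%. Anapc5 and Anapc7 rose in clones 2, 3 and 4, and both lie on chromosome 5, whose median was raised in clones 3 and 4 as given above. Cdc16 rose in clones 2 and 4 and Anapc16 in clone 2.

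Replication and G1 genes come last. Of 35 tested S-phase genes, the numbers that rose and fell were 0 and 0 (clone 1), 8 and 1 (clone 2), 9 and 5 (clone 3), and 12 and 1 (clone 4) (medians 0.11, 0.23, -0.04 and 0.23 in clones 1 to 4). In clone 3 the S-phase count is near the 19.9% of all genes that rose, and in clone 4 the background was 19.3%. Mcm2, a subunit of the replicative helicase, rose in clones 2, 3 and 4 to 178%, 204% and 229% of the parental mean, and so did the licensing factor Cdt1, to 183%, 235% and 218%, and the helicase subunit Mcm6. Mcm5 was counted at 53.4 and 51.1 normalised reads (parental), 141 and 216 (clone 1), 297 and 269 (clone 2), 43.9 and 45.1 (clone 3) and 73.4 and 480.4 (clone 4); it rose in clone 2, and the second culture of clone 4 was the highest of the 10 while the first was below both cultures of clones 1 and 2. Among 13 tested G1 cyclins and inhibitors, the numbers that rose and fell were 0 and 1 (clone 1), 2 and 1 (clone 2), 3 and 2 (clone 3), and 6 and 1 (clone 4) (medians 0.07, 0.13, 0.22 and 0.29 in clones 1 to 4). Ccnd1, cyclin D1, rose in clones 2, 3 and 4, to 309% of the parental mean in clone 4, and Ccnd3 rose in clones 3 and 4. The inhibitor Cdkn2c fell in clones 2, 3 and 4, and Cdkn1a, which codes for p21, fell in clone 1 to 50.3% (stabilised log2 difference -0.89 ± 0.11 SE, limma adjusted p = 0.00226) and in clone 3 to 67.4%, and stood at 115% in clone 2 (adjusted p = 0.243).

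The tumours gave 11810 barcodes for WT skin, 13167 for KO skin, 38176 for WT ocular and 11283 for KO ocular. WT ocular lists 32285 genes with barcodes of 16 bases, the others 19059 genes with barcodes of 24 bases, so WT ocular is given beside the others and not compared with them. No full barcode was shared between matrices. On their first 16 bases the 3 like matrices shared 1793 to 2417 barcodes, and WT ocular shared at most 4. Ccnb1 is listed only in WT ocular and was left out of every single-cell count, which leaves 37 members. Cells with at least 500 UMIs (unique molecular identifiers, each 1 captured RNA molecule; CPM below are UMIs scaled to 1000000 over a class) were clustered within each matrix without the 180 genes of the cell-cycle lists, and clusters were named from marker genes as melanocytic-like, macrophage-like and so on, written below without the suffix. Unnamed clusters held 28.9% of cells in WT skin, 27.0% in KO skin, 10.7% in WT ocular and 2.94% in KO ocular. Those with melanocytic genes as their best match were 16.96, 27.0, 10.7 and 2.11% of all cells in the same order.

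Each genotype and site has 1 matrix, so no difference between matrices was tested, and the intervals below cover counting error only. Bap1 did not separate the labels: melanocytic cells held 41.9 Bap1 CPM in WT skin, 47.7 in KO skin, 5.6 in WT ocular and 33.2 in KO ocular. In the bulk cultures the clone means held 9.62 to 25.9% of the parental Bap1 level, and no such fall appeared between WT and KO skin. Where the captured stretch lies relative to the edit is not known here, and the cause was not tested. Bap1 thus bears out neither label, and direction between genotypes rests on the labels alone.

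A cell with RNA of 4 or more of the 37 genes after thinning to 2000 UMIs was counted as positive, and cells below 2000 UMIs were left out. Among melanocytic cells, 574 of 5220 were left out in WT skin and 862 of 6907 in KO skin. In KO ocular 726 of 5285 were left out, and in WT ocular 5084 of 10580, so the WT ocular share covers the deeper cells only. In melanocytic cells the share was 13.2% (95% exact binomial interval 12.2 to 14.2%, 613 of 4646 cells) in WT skin. It was 11.3% (95% exact binomial interval 10.5 to 12.1%, 681 of 6045 cells) in KO skin. It was 24.9% (95% exact binomial interval 23.6 to 26.2%, 1134 of 4559 cells) in KO ocular and 21.7% (95% exact binomial interval 20.6 to 22.8%, 1193 of 5496 cells) in WT ocular. The KO ocular interval lies above those of both skin matrices, and the KO skin interval lies just below that of WT skin. Without thinning and over all melanocytic cells the shares were 34.6, 22.1, 26.6 and 51.2% in WT and KO skin, then WT and KO ocular, at median depths of 6310, 4316, 2069 and 9088 UMIs.

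Mature neutrophils do not divide, and their share was taken as the background, whose source was not tested: 5.83% (95% exact binomial interval 2.17 to 12.2%, 6 of 103 cells) in KO skin, 5.58% (95% exact binomial interval 4.31 to 7.08%, 63 of 1129 cells) in KO ocular and 6.48% (95% exact binomial interval 3.95 to 9.94%, 19 of 293 cells) in WT ocular, at unthinned median depths of 1254, 2204 and 1292 UMIs. In WT skin only 28 neutrophils were deep enough, and their share of 14.3% (interval 4.03 to 32.7%) overlaps that of the melanocytic cells, so the background there is not known. A further WT skin cluster of 1406 cells had neutrophil genes as its best match and was led by Acod1, Ccl4 and Hcar2. It was kept unnamed for low depth (median 1028 UMIs), and 54 of its 364 deep enough cells (14.8%) were positive, no lower than the melanocytic share. The KO ocular neutrophils were uneven: 38 of 236 cells (16.1%) were positive in a cluster led by Egln3 and Csf1, and 3.26 and 4.03% in the other 2 clusters (UMIs drawn separately for the count by cluster). As a class they also held melanocytic marker RNA at 24742 CPM, against 53736 in melanocytic cells. Neutrophils of the other matrices held it too, at 29469 against 39531 CPM in KO skin, 5117 against 11706 in WT ocular and 14495 against 61916 in WT skin. Rods, the non-dividing photoreceptors, reached 12.2% in WT ocular (interval 9.26 to 15.6%), so up to that share can arise there in cells that do not divide.

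Among immune cells, macrophages held 9.57% (95% exact binomial interval 8.14 to 11.2%, 146 of 1526 cells) in WT skin, and 2.84% (95% exact binomial interval 1.92 to 4.03%, 30 of 1057 cells) in KO skin, which is at or below the neutrophil level. The share in macrophages of KO ocular was 8.85% (95% exact binomial interval 6.55 to 11.6%, 46 of 520 cells), with an interval that overlaps that of the neutrophils, and in WT ocular 12.6% (95% exact binomial interval 10.9 to 14.5%, 172 of 1361 cells), the latter level with rods. The 2 macrophage clusters of WT skin were unlike: 1 led by C1qa, C1qb and C1qc (the complement genes of tissue macrophages) held 15.6% positive cells, and the other, led by Ccl2, Arg1 and Mmp12, held 2.59%. The macrophage shares leave out clusters with macrophage leading genes but melanocytic genes as best match, which stayed unnamed. In KO skin such a cluster of 622 cells was 12.7% positive (41 of 322). In WT skin 1 of 412 cells was 14.9% positive (41 of 276). The macrophage shares of both skin matrices thus depend on the naming. Monocytes held 5.26% (8 of 152 cells) in WT skin, 7.1% (13 of 183) in KO skin, 5.78% in WT ocular and 2.14% in KO ocular, with intervals that reach or lie below the neutrophil level in the same matrix. T and NK cells were few: 7 of 21, 7 of 43, 15 of 140 and 4 of 88 were positive in WT and KO skin, then WT and KO ocular. B cells gave 5 of 20, 3 of 19, 13 of 104 and 2 of 36.

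**Figure D4:**
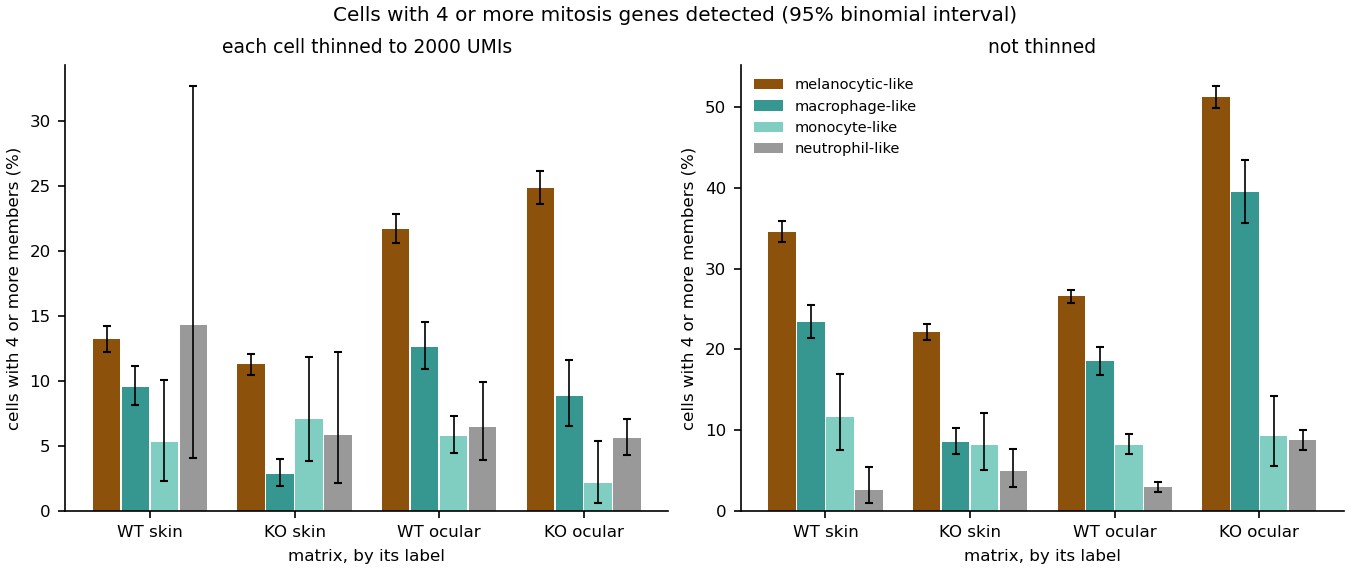
Share of cells with 4 or more of 37 mitosis genes detected at 2000 UMIs per cell (left, y axis in percent) and without thinning (right) in the 4 matrices (x axis), with bars coloured by cell class and exact binomial 95% intervals, which cover counting error only. The left panel leaves out cells below 2000 UMIs. Melanocytic cells stand at 13.2% in WT skin, 11.3% in KO skin, 21.7% in WT ocular and 24.9% in KO ocular, and neutrophils give the background share.

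Positive melanocytic cells were unevenly spread over clusters (shares per cluster come from a separate random thinning of the same cells). In KO skin, 616 cells led by Ankle1, Troap and Espl1, all genes of chromosome segregation or repair, held 74.7% of all positive melanocytic cells, and 84.5% of that cluster was positive. In WT skin, 325 cells led by Neil3, Ankle1 and Ncapg held 44.6% of positive cells, with 83.6% positive. Another WT skin cluster, led by Alpl, Wfdc3 and Abca12, held 33.2% of positive cells at 11.7% positive. In KO ocular positive cells were spread wider, and every melanocytic cluster there was at least 16.7% positive. The KO ocular cells led by Pbk and histone genes, with a median of 27780 UMIs, were 39.1% positive and held 27.7% of positive cells. Leading genes of that cluster also included the counted members Cdca3, Cdc20 and Top2a, and those of the KO skin cluster of 616 cells included the member Kif11. The lowest melanocytic cluster was 3.91% in WT skin, 0.651% in KO skin and 16.2% in WT ocular. Other named melanocytic clusters were led by interferon-response genes (Ifit1 and Ifit3, in both skin matrices), by Hspa1b and Egr1 (KO skin), by mitochondrial genes (KO skin and KO ocular) or by Ccl3 and Ccl4 (WT ocular).

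Positive cells also held more S-phase RNA, from genes not used to call them. S-phase genes stood at 4130.3 CPM in positive and 1403 in other melanocytic cells of WT skin, 3612 and 1280 in KO skin, 5010.1 and 1931 in KO ocular, and 1974 and 958 in WT ocular. Positive cells were deeper before thinning in 3 matrices (median 9946 against 7006 UMIs in WT skin) and shallower in WT ocular (3737 against 4786). Melanocytic marker RNA of the positive and other cells was at 49276 and 56033 CPM in KO ocular and 60067 and 62602 in WT skin.

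Summed over the 37 genes, melanocytic cells held 1371 CPM in WT skin (95% exact Poisson interval 1361 to 1381), 1430 in KO skin (1419.9 to 1440.1), 1305 in WT ocular (1294 to 1316) and 2391 in KO ocular (2380.3 to 2401). KO ocular was the highest of the 3 like matrices. Neutrophils held 582, 492, 803 and 1092 in the same order of matrices. The summed levels of WT and KO skin cannot be ordered from these data: 2 KO skin clusters of 1234 and 1489 cells, kept unnamed for 1 leading marker each of another class (Myh11 and Ttr), were 0.847 and 2.36% positive. Counting them as melanocytic, an alternative chosen after seeing the data, gave KO skin 8.42% positive cells and 1126 CPM, which turns the order of the summed level. With at least 1000 UMIs per cell, or at the coarser clustering resolution of 0.5, WT skin was also the higher of the pair, at 1503 against 1387 and 1384 against 1353 CPM.

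Gene by gene, the member with the most UMIs in melanocytic cells was Mki67 in WT skin, at 161 CPM (158 to 165), and in KO ocular, at 256 CPM (252 to 259). Cdca3 led in KO skin, at 111 CPM (109 to 114), and Cks2 in WT ocular, at 205 CPM (200.9 to 209.6). The fewest UMIs were those of Ttk in WT and KO skin, then WT and KO ocular, at 6.97, 7.7, 3.33 and 12.3 CPM. Levels between genes here also reflect which part of each transcript was captured. Against neutrophils of the same matrix, the melanocytic level was higher with intervals apart for 18 of 37 members in WT skin, 33 in KO skin, 24 in WT ocular and 34 in KO ocular, with median ratios of 2.67, 3.29, 1.51 and 2.47. Members lower with intervals apart were 1 in WT skin (Kif23, 21.5 CPM against 84.6 in neutrophils), 2 in KO ocular (Kif23, 53.2 against 65.7, and Cks2, 64.6 against 74.3) and 0 in the other matrices. Against macrophages, 2 members (Top2a and Ube2c) were lower with intervals apart in WT skin and 0 in the others, and the counts of higher members were 22, 37, 12 and 37 of 37.

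Between the skin matrices, 23 of 37 members were higher in KO skin and the median ratio of KO to WT skin was 1.04, with intervals apart for 15 members upward and 7 downward. Mki67 had the lowest ratio, 0.559, from 161 CPM (158 to 165) to 90.2 CPM (87.7 to 92.7). Ccna2 was next, with a ratio of 0.643. Cenpa had the highest, 2.47, followed by Psrc1, 2.43, and Aurkb, 2.07. Among passenger genes Birc5 was at 1.55 and Cdca8 at 1.03, and among entry genes Cdk1 and Plk1 were at 0.946 and 0.951. Between the knockout sites, 34 of 37 members were higher in KO ocular than in KO skin, with a median ratio of 1.499. Ccna2 had the highest ratio, 3.5, then Cks2, 2.87, and Mki67, 2.83, and the 3 members below 1 were Psrc1, 0.705, Cenpf, 0.851, and Cenpa, 0.918. The neutrophils of the same matrices were also higher in KO ocular for the first 3 of these genes, from 16.4 CPM in KO skin to 75.8 in KO ocular for Ccna2, 29.2 to 74.3 for Cks2 and 37.4 to 113 for Mki67, and the part of this background in the melanocytic ratios was not tested. Cks2 in KO ocular was higher in neutrophils than in melanocytic cells (64.6 CPM). These comparisons share the KO skin matrix.

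Of the positive melanocytic cells at 2000 UMIs, Mki67 was detected in 68.2, 56.7, 14.2 and 62.3% in WT and KO skin, then WT and KO ocular. For Cdca3 the shares were 52.7, 55.7, 31.3 and 49.6%, for Cdk1 44.2, 46.3, 33.9 and 47.4% and for Ccna2 49.1, 43.3, 18.9 and 56.6%. In WT ocular Cks2, Birc5, Ube2c and Cenpa were the most often detected, at 63.4, 51.3, 50.04 and 45.8% of positive cells. Positive cells were called from these same genes in the same draw of UMIs, so each of these shares is raised by that selection.

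**Figure D5:**
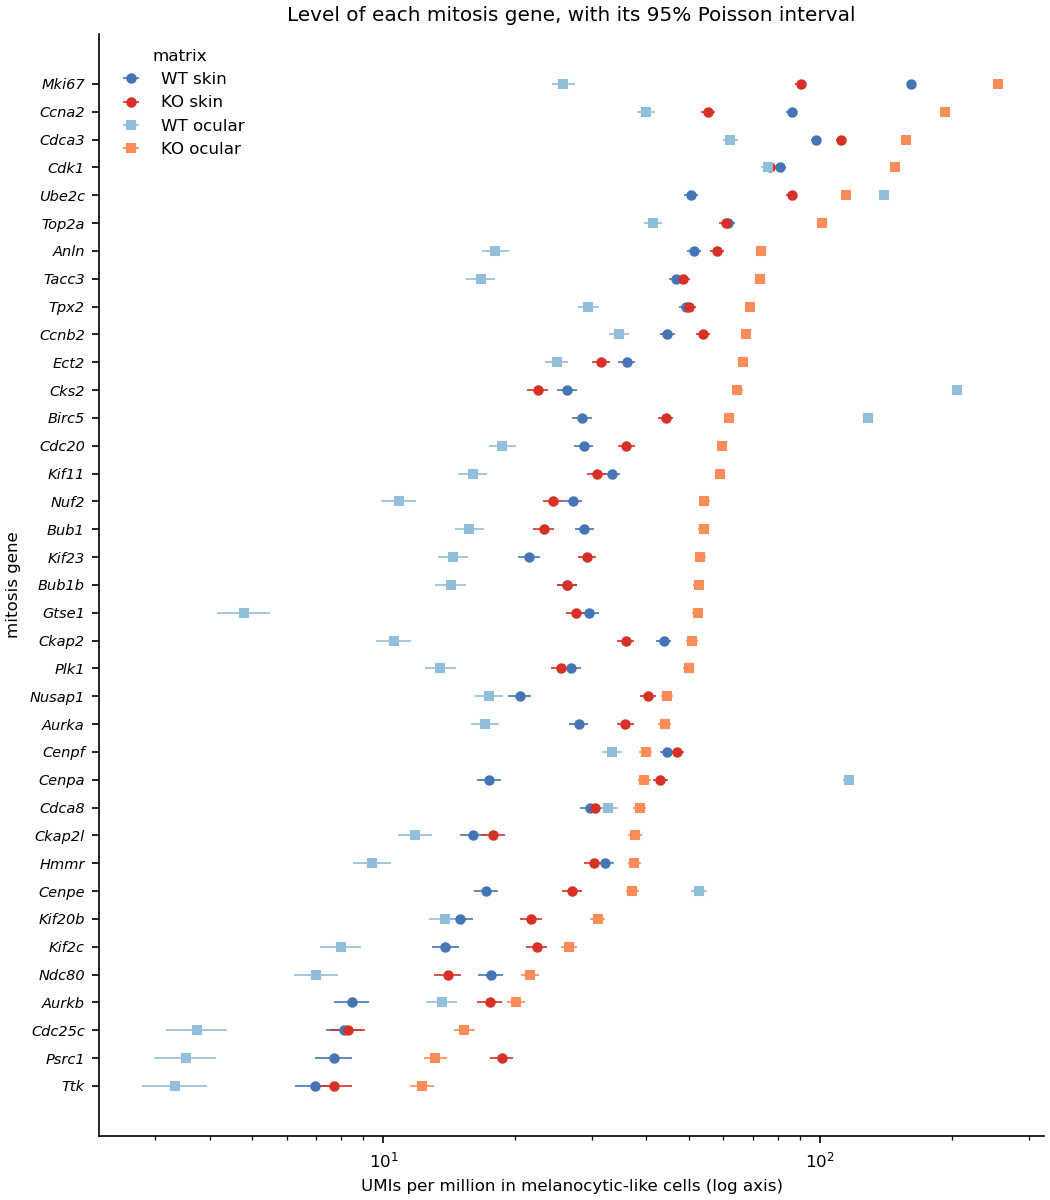
CPM of each of the 37 mitosis genes (y axis, ordered by the KO ocular level; x axis on a log scale) in melanocytic cells of the 4 matrices, with exact Poisson 95% intervals. Mki67 stands at 256 in KO ocular and 25.8 in WT ocular, and Cks2 at 205 in WT ocular.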

How the data were processed

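Bulk RNA of 10 cultures was given as log2 values, variance-stabilised by the authors, as the name of the deposited table and its values show; aligner and counter: not given in the sources used here. Zero reads sit at the lowest value, and whole reads were recovered from the steps between values. Genes whose mean was at least 1 above the lowest value were tested (10803 of 13202) with limma 3.58.1 in R 4.3.3, with a mean-variance trend and 1 spread estimate for all 5 lines. Alternatives were edgeR 4.0.16 (quasi-likelihood, TMM) on the recovered reads, quantile normalisation, median centring, log2(reads + 1), no filter, no trend, the replicate number as a block, fits of 1 clone with the parental line, and omission of each library.

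Single-cell counts are raw UMI counts deposited by the authors, made with Cell Ranger 7.0.0 (WT ocular) or 8.0.0 (the others) per the file headers; the submitters' processing notes name GRCm38 and mm10. Cells with at least 500 UMIs were clustered with scanpy 1.11.5 in Python 3.11.15 (2000 variable genes, 30 components, 15 neighbours, Leiden resolution 1). A cluster was named if its best class had at least 3 detected markers, their level averaged at least 50% of the highest cluster and no other class had more markers among its 10 leading genes; lists of platelet, liver, neuron, transporter and cornified genes that also kept a name from a cluster were chosen after seeing the data. Doublets were kept, and an alternative left out the 5% with the highest Scrublet score. Exact intervals are at the 95% level, and CPM are UMI counts summed over a class and scaled to 1000000.

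Promoter windows come from RefSeq (GRCm38.p6), and gene symbols are those of the files. The 38 members, all lists and the pairs with clone 2 were chosen with earlier results of these data known. Genes given in every culture are the 2 with the smallest F test p-value in each role; of the other lists up to 4 with the largest mean absolute difference over the clones among those called in at least 1 clone. Scripts were tested on simulated data. Genome and exome sequencing samples were not used here.

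The replicate numbers of the labels were checked for pairing by the correlation of deviations from the line means between same-numbered cultures. Between pairs of clones it was 0.73, 0.39, 0.32, 0.31, 0.11 and -0.03, and between the parental line and a clone it was -0.13 to -0.07. It was not above 0.1 in all pairs, so the numbers were not taken as pairs in the main fit. Same-numbered clone cultures may share an effect, and the replicate block among the alternatives allows for it. Nothing in the labels says how far apart the cultures of a line were kept, so p-values measure the spread between these samples, which may in part be technical.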

Additional observations from a re-analysis of the deposited data

How the results depend on the processing

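The 25 members called higher in clone 2 stayed within 1.5 times that count under every bulk alternative except omission of a library, where the count was 11 to 26, and 0 members were called lower there in any of them. In clone 1, 2 members were called higher with quantile normalisation, 1 with median centring and 2 with a replicate block. In clone 3, 5 were called higher with quantile normalisation, 1 with a replicate block and 5 when clone 3 and the parental line were fitted alone, and the count called lower was 1 with quantile normalisation, 7 with edgeR, 8 on log2(reads + 1) and 14 in the fit of clone 3 and the parental line alone. The median of clone 3 was 0.02037 with quantile normalisation. In clone 4, 8 were called higher with quantile normalisation. Against clone 1, clone 2 had 12 members higher with quantile normalisation, 2 with edgeR, 2 on log2(reads + 1) and 9 with a replicate block. With 1 library left out in turn, the counts ranged from 0 to 1 (clone 1 higher), 0 to 1 and 0 to 6 (clone 3 higher and lower), 1 to 6 and 0 to 1 (clone 4 higher and lower), 1 to 12, 11 to 29 and 5 to 20 (clone 2 above clones 1, 3 and 4), and 14 to 29 (F test). The causes of these shifts were not tested.

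The share of positive melanocytic cells in WT and KO skin, then WT and KO ocular was 7.89, 7.71, 6.48 and 16.6% at 1000 UMIs, 22.6, 20.3, 30 and 33.6% at 4000 UMIs, 34.6, 22.1, 26.6 and 51.2% without thinning, 28.8, 22, 48.7 and 40.1% for 2 or more members and 9.3, 8.88, 9.08 and 18.1% for 6 or more. With at least 1000 UMIs it was 15% in WT skin and 9.82% in KO skin, and in KO skin it was 9.47% at Leiden resolution 0.5 and 8.42% with the extra clusters named. The summed level moved to 1503, 1387 and 1321 CPM (WT skin, KO skin and WT ocular, at least 1000 UMIs), to 1384, 1353 and 2376 (WT skin, KO skin and KO ocular, resolution 0.5), to 1414 (WT skin, cycle genes kept in the clustering), to 1482 and 2377 (KO skin and KO ocular, doublet scores) and to 1126 (KO skin, extra clusters named). The order of KO ocular above both skin matrices held in all of these. At each thinned depth, cells with fewer UMIs were left out. Depth limits the WT skin background, with 28 neutrophils at 2000 UMIs.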
